A study of Homo sapiens with 8 samples.

Results

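Long intergenic noncoding RNAs carrying a LINC number were examined in OAW42-R cells after knockdown of the lncRNA UCA1. The members were chosen by detection. Of 1127 genes with a LINC-number symbol and a probe on the array, 141 (12.5%) had a probe that the scanner software marked as well above background on every array of one condition or of both. The brightest such probe stood for the gene. OAW42-R is a chemoresistant ovarian cancer line derived from OAW42 cells, so that every value below belongs to 1 line. Cells received either sictrl, a pool of nontargeting siRNAs, or siUCA1, a mix of the UCA1 siRNAs numbered 2 and 4, at 20 nM, with no drug named in the labels. RNA was taken after 24 h by the labels, whereas the study's methods give a later time. Each condition had 4 one-color Agilent arrays named A1, M2, A2 and A3, from independent experiments.

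A LINC number is a provisional name for a transcript that lies between protein-coding genes and has no established function. Such lncRNAs can recruit chromatin regulators, bind microRNAs or proteins, or act on genes beside their own locus, and a few hold short reading frames that are translated. Many are transcribed at low levels and in few tissues, and tumors often turn on sets of them. UCA1, urothelial cancer associated 1, is itself a former LINC gene and is known for its high level in several carcinomas and its association with drug resistance.

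Detection set the limits of what could be read. The other 986 LINC genes were not measured here, and 835 of them had no probe well above background on any array. By the same filter 10976 of 18216 protein-coding genes (60.3%) were kept. Values are log2 signals relative to the 75th percentile of each array. Just outside the rule, 35 genes reached 3 arrays of their best condition, with mean values from -3.57 to -1.82. Just inside it, the 19 members kept through 1 condition had mean values from -2.56 to -1.08, so the ranges overlap. The remaining 122 members were well above background on all 8 arrays, with mean values from -2.29 to 8.83. Of the 141, the spans of 12 overlap a protein-coding gene in RefSeq, as LINC00092 does with ERCC6L2 and LINC01089 with SETD1B, so "intergenic" is not exact for these. Where a probe could also bind a near-identical copy, as may hold for LINC01002 or LINC00869, its value is uncertain.

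UCA1 fell from 8.20 ± 0.49 with sictrl to 3.16 ± 0.47 with siUCA1 (SD, n = 4 each), a log2 change of -5.04 or 97.0% less signal (exact permutation p = 0.0286, the smallest that 4 against 4 allows, two-sided). Of 12 epithelial ovarian markers, 8 were kept, among them PAX8, EPCAM and KRT18, while WT1, MUC16, WFDC2 and MSLN were above background on no array. Of the 8, 3 changed with siUCA1, beside 11.5% of all genes. CDH1 was lower, with a log2 change of -0.81 (adjusted p = 0.0149), and SOX17 and FOLR1 were higher, at 0.61 (adjusted p = 0.00645) and 1.05 (adjusted p = 0.0390). Their part in the results below was not tested. Of 9 markers of leukocytes, endothelium, fibroblasts and red blood cells, 8 were on the array and VWF alone was kept. COL1A1 was above background on 5 arrays at most, PTPRC on 2 and PECAM1 on 1, and the others on none. The spatial trend that the scanner software removed was strongest on sictrl A3 (root mean square 0.321) and on siUCA1 A1 (0.287), against 0.0737 to 0.0943 elsewhere. The 8 arrays shared a slide and a scan run. On sictrl A3 and siUCA1 A1 the members also lay farthest from the means of their group, by a median of 0.281 and 0.242.

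Promoters are shown for 4 members that the results turn on, each from 250 bases before to 50 after the start in RefSeq (GRCh38.p14), 5′ to 3′ on the strand of the gene. LINC00294 had the deepest fall, LINC01315 fell on all arrays by a similar amount, LINC02608 rose together with its nearest coding gene, and LINC00205 starts back to back with the coding gene POFUT2. Capitals mark the TATA box (TATAAA), the CCAAT box, the GC box (GGGCGG), the E-box (CACGTG), the AP-1 motif (TGACTCA) and the cyclic AMP response motif (TGACGTCA). Both strands were searched, and overlapping matches were counted apart.
LINC00294, chr11:33075900-33076199, plus strand: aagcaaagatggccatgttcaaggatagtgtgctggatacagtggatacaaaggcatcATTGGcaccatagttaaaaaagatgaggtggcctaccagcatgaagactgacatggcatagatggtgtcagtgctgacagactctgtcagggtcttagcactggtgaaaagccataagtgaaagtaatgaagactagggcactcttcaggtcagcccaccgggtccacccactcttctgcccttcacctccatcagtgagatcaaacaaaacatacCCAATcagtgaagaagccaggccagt
LINC01315, chr22:42369159-42369458, minus strand: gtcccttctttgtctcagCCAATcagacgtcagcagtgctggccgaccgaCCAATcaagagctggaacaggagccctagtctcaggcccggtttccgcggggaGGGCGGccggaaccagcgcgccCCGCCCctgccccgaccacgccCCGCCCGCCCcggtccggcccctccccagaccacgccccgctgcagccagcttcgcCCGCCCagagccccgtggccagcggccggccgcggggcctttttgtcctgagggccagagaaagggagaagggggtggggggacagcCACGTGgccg
LINC02608, chr1:212234687-212234986, minus strand: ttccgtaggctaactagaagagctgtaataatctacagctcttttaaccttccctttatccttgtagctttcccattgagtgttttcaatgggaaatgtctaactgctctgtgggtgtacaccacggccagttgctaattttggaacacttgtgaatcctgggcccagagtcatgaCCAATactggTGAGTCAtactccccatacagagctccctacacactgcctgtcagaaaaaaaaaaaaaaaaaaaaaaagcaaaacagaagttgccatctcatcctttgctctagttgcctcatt
LINC00205, chr21:45287802-45288101, plus strand: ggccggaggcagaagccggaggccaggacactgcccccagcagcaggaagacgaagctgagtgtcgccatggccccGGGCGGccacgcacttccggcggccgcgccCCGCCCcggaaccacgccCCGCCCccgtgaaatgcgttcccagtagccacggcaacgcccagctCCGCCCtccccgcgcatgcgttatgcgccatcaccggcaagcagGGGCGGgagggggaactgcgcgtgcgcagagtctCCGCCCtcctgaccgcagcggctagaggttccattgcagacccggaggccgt

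LINC01315 and LINC00205 have GC-rich windows, whereas those of LINC00294 and LINC02608 hold few CpG. LINC00294 holds 2 CCAAT matches and a single CpG at 48.0% GC. LINC01315 holds 5 GGGCGG, 2 CCAAT and 1 CACGTG match, with 28 CpG at 72.7% GC, and LINC00205 holds 6 GGGCGG matches with 34 CpG at 72.3% GC. LINC02608 has 1 CCAAT and 1 TGACTCA match at 42.0% GC. Promoters were at hand for 106 of the 141 members, and for 27305 genes in all. TGACTCA stood in 14 of the 106 (13.2%) against 4.92% of all promoters, and CCAAT in 43 (40.6%) against 35.7%. GGGCGG was found in 48.1% against 44.6%, CACGTG in 9.43% against 7.43%, TATAAA in 11.32% against 11.95% and TGACGTCA in 1.89% against 1.98%. The median GC content was 59.0% for the members and 58.3% for all promoters. Among the 7 promoters of members that changed, TGACTCA occurred only in that of LINC02608. These are counts of letters, and no binding was measured.

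Of the 122 members measured on all 8 arrays, 10 changed at an adjusted p below 0.05 (limma with Benjamini-Hochberg over all 15457 genes), or 8.20%. Among all genes measured on all 8 arrays the share was 11.5%, and the lower share of the members was not tested. The members were dimmer, with a median level of 0.275 against 1.82 for those genes, and its part in the comparisons here was not tested. 5 members rose and 5 fell, beside 5.96% of all genes that rose and 5.59% that fell. The 4 sictrl and 4 siUCA1 values did not overlap in 18 members (14.8%), against 21.3% of all genes. The median change was 0.05 on the log2 scale for the members and 0.04 for all genes, and the median size of change was 0.158 and 0.195. The members had a median SD of 0.219 (sictrl) and 0.212 (siUCA1) between arrays, compared with 0.181 and 0.184 for all genes. In each of the 10 that changed, the 2 conditions did not overlap. The differences between the 4 pairs of arrays with the same name therefore had the same direction, which is no further check.

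**Figure D1:**
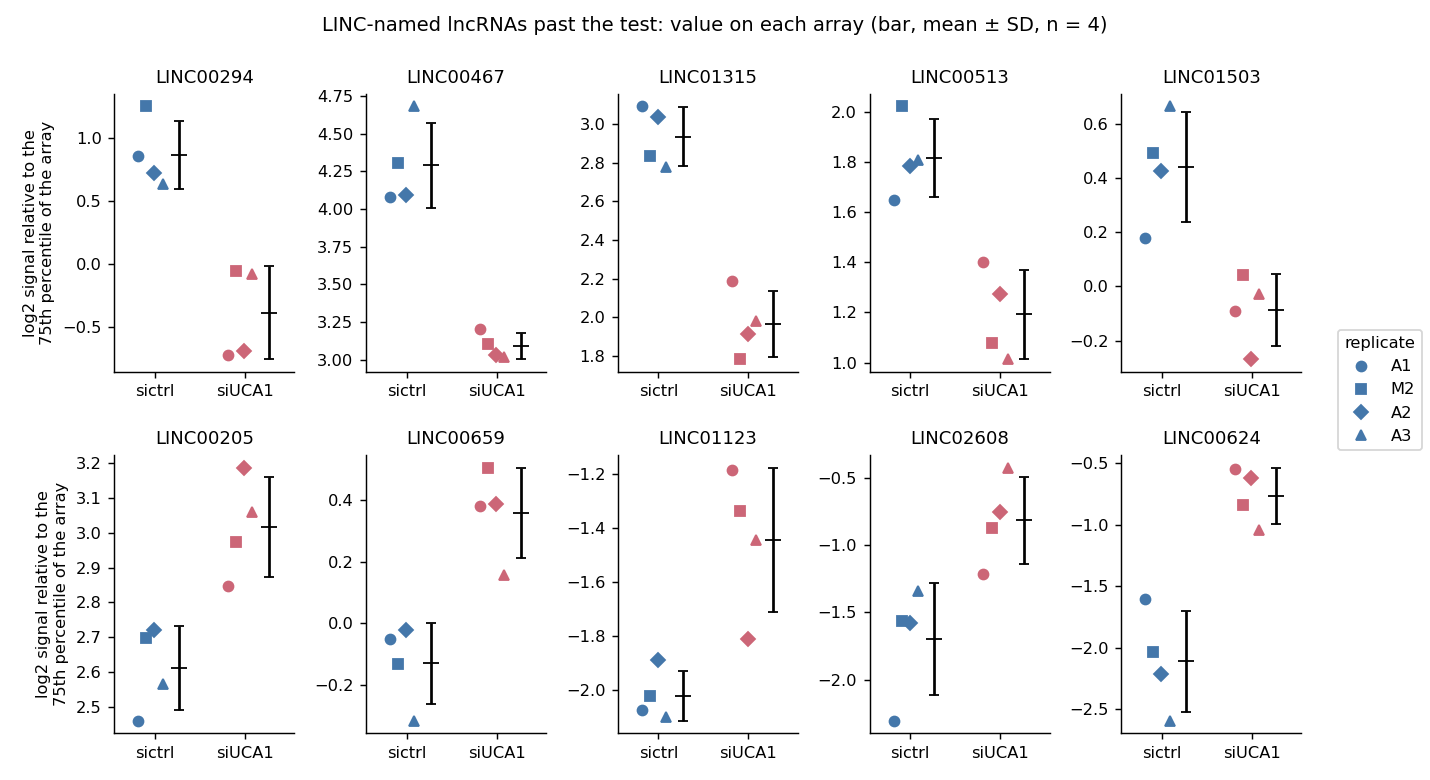
Value of each of the 10 LINC-named lncRNAs past the test on every array (y axis, log2 signal relative to the 75th percentile of the array, with its own range in each panel). Symbols give the replicate name, and the bars the mean ± SD of 4 arrays; in every panel the siUCA1 points lie wholly below (top row) or above (bottom row) the sictrl points.

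**Figure D2:**
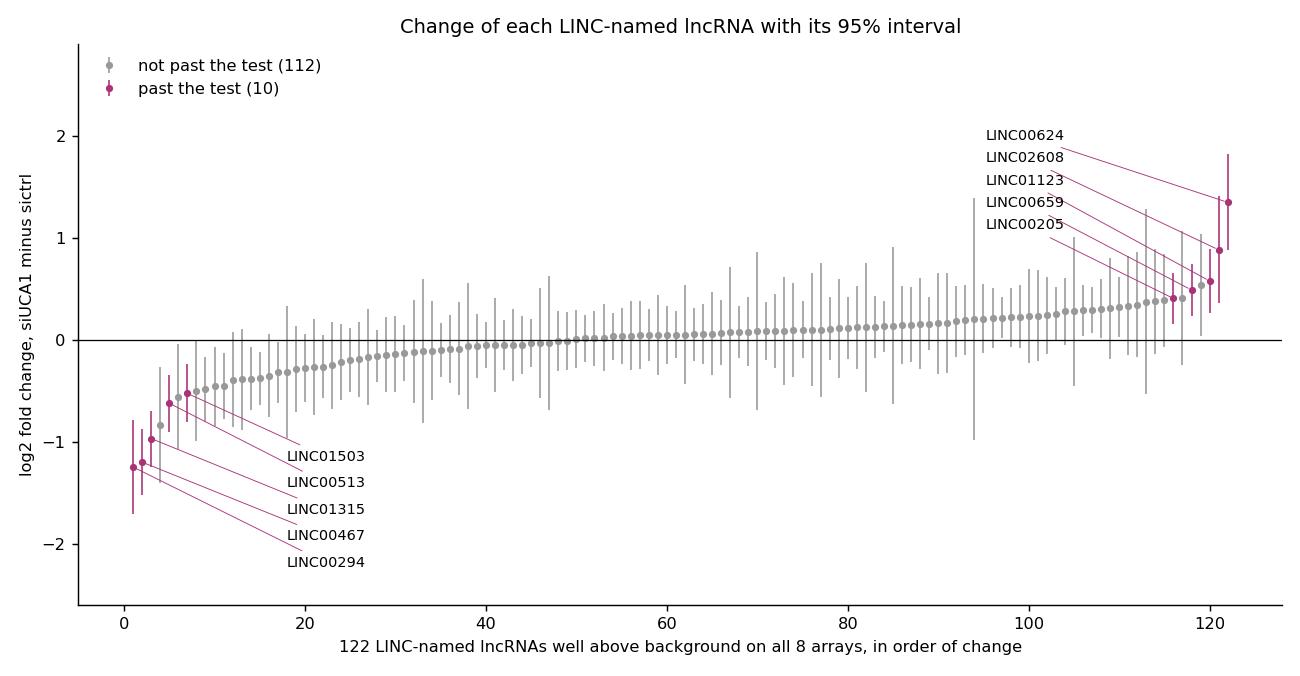
Log2 fold change (siUCA1 minus sictrl) of the 122 members measured on all 8 arrays, in order, with 95% intervals from limma. The 10 past the test lie at both ends, from -1.25 (LINC00294) to 1.35 (LINC00624), and most gray intervals include 0.

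The 5 lncRNAs that fell began with LINC00294, a lncRNA of chromosome 11 whose role in these cells is not established. It read 0.85, 1.25, 0.72 and 0.64 with sictrl (arrays A1, M2, A2 and A3) and -0.72, -0.05, -0.69 and -0.08 with siUCA1. The lowest sictrl array was thus above every siUCA1 array, and the siUCA1 arrays formed a lower pair, A1 and A2, and a higher pair, M2 and A3. The change was -1.25 (SE 0.20, adjusted p = 0.00779), a 2.38-fold loss. Bulk RNA cannot tell fewer cells carrying the RNA from less RNA per cell, here and below. Under normexp background correction the change shrank to -0.82 and still passed the test (adjusted p = 0.0407). That setting removes the local background in another way, from signals whose spatial trend was not removed. It also adds 50 to every signal, which by itself makes log2 changes smaller, most of all for dim probes.

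LINC00467, on chromosome 1, is a lncRNA repressed by MYCN in neuroblastoma, and a short peptide translated from it has been described in colorectal cancer. Its sictrl values were 4.08, 4.31, 4.10 and 4.68, and those with siUCA1 were 3.21, 3.105, 3.03 and 3.02. The siUCA1 arrays had a mean of 3.09 with an SD of 0.0860, and sictrl A3 was the highest of all. The loss of 2.30-fold (log2 change -1.20, SE 0.14, adjusted p = 0.00273) was seen by both of its probes, the second with a change of -1.04 (adjusted p = 0.00270).

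LINC01315, on chromosome 22, read 3.09, 2.84, 3.04 and 2.78 with sictrl and 2.19, 1.78, 1.91 and 1.98 with siUCA1. The gap between the lowest control and the highest knockdown array was wider than the spread within either condition, with SDs of 0.15 and 0.17. The change was -0.97 (SE 0.12, adjusted p = 0.00316), a loss of 1.96-fold. LINC00513, on chromosome 7, is a lncRNA linked to interferon signaling in lupus. It read 1.65, 2.02, 1.78 and 1.81 with sictrl and 1.40, 1.08, 1.27 and 1.01 with siUCA1. The change was -0.62 (SE 0.12, adjusted p = 0.0154), and its dimmer second probe gave -0.40 without passing the test (adjusted p = 0.348). LINC01503, on chromosome 9, is a TP63-driven lncRNA of squamous carcinomas. With sictrl it read 0.18, 0.49, 0.43 and 0.66, and with siUCA1 -0.09, 0.04, -0.27 and -0.03. Its conditions came close, at 0.18 on sictrl A1 and 0.04 on siUCA1 M2. The change was -0.53 (SE 0.13, adjusted p = 0.0308), and -0.29 under normexp correction, which did not pass (adjusted p = 0.367).

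The 5 that rose were led by LINC00624, a lncRNA of chromosome 1 reported to act on the RNA editing enzyme ADAR in breast cancer. It read -1.61, -2.03, -2.22 and -2.59 with sictrl and -0.55, -0.84, -0.62 and -1.05 with siUCA1. Every siUCA1 array was above every sictrl array, and the sictrl arrays themselves were spread by an SD of 0.41. The rise was 1.35 (SE 0.21, adjusted p = 0.00656) or 2.54-fold. With normexp correction, where 50 is added to every signal, the rise was 0.59 and did not pass (adjusted p = 0.0693). How much of the difference came from that addition was not tested.

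LINC02608, also on chromosome 1, read -2.30, -1.56, -1.58 and -1.34 with sictrl and -1.21, -0.87, -0.75 and -0.43 with siUCA1. Its conditions were separated by a small margin, from sictrl A3 at -1.34 to siUCA1 A1 at -1.21. Between arrays of the same name the difference was 0.69 or more, but the names were not taken to pair the arrays. The change was 0.88 (SE 0.23, adjusted p = 0.0422), and 0.39 with normexp correction (adjusted p = 0.173). LINC01123, on chromosome 2, is a lncRNA studied in lung cancer as a target of MYC. Its sictrl values were -2.07, -2.02, -1.89 and -2.10, and its siUCA1 values -1.19, -1.34, -1.81 and -1.44. The array siUCA1 A2 was barely above the highest control. The change was 0.58 (SE 0.14, adjusted p = 0.0323), and 0.21 with normexp correction (adjusted p = 0.529).

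LINC00659, on chromosome 20, read -0.05, -0.13, -0.02 and -0.32 with sictrl and 0.38, 0.51, 0.39 and 0.16 with siUCA1. The array A3 was lowest in both conditions. The change was 0.49 (SE 0.11, adjusted p = 0.0264), and a second probe gave 0.54 with a larger error (SE 0.29, adjusted p = 0.267). LINC00205, on chromosome 21, had the smallest change of the 10. It read 2.46, 2.70, 2.72 and 2.57 with sictrl and 2.85, 2.97, 3.19 and 3.06 with siUCA1, so that all siUCA1 arrays exceeded all sictrl arrays. The change was 0.40 (SE 0.11, adjusted p = 0.0456). With quantile normalization, among other settings, it did not pass. Its other probes, with changes of 0.29 and 0.05, did not pass the test (adjusted p = 0.214 and 0.887).

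All 10 kept their direction in each of 20 other settings, but the number that passed did not hold. With median scaling 4 of the 122 passed, 1 higher and 3 lower, beside 3.46% of all genes tested. With normexp correction 4 passed, all of them lower, beside 2.46% of all genes. By the 50 that it adds to every signal, this setting shrinks the changes of dim probes most. LINC00294, LINC00467 and LINC01315 passed in every setting other than the fit of all genes with no detection filter. Of the 20 settings, LINC00624 missed the test in 2, LINC00513 in 5, LINC01503 in 8, LINC00659 and LINC02608 in 9 each, LINC01123 in 12 and LINC00205 in 13. With 1 sictrl array left out, the count was 7 without A1, 4 without M2, 5 without A2 and 13 without A3. With 1 siUCA1 array left out, it was 12 without A1, 4 without M2, 6 without A2 and 6 without A3. The share of all genes that passed ranged from 4.90% to 14.6% over these 8 fits. Without both sictrl A3 and siUCA1 A1, the arrays with the strong spatial trend, 15 members passed (5 higher and 10 lower), 9 of which were among the 10, and the share of all genes rose to 24.3%.

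**Figure D3:**
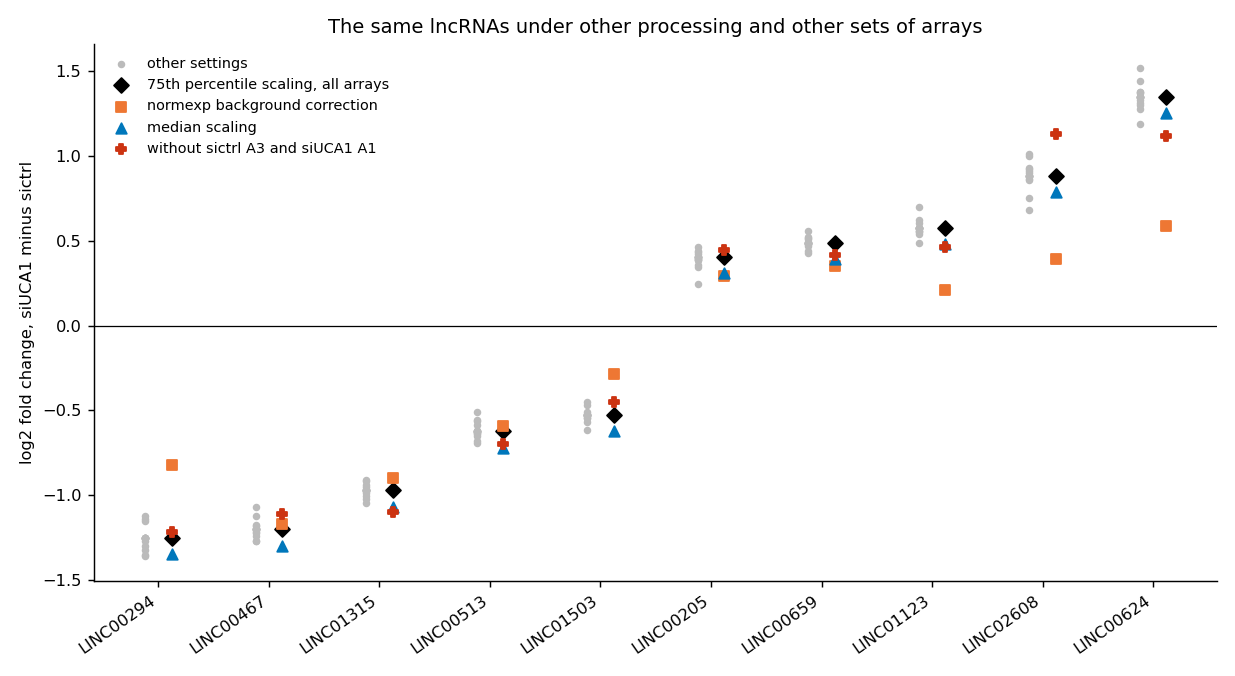
Log2 fold change (siUCA1 minus sictrl) of the same 10 lncRNAs under the settings tried. Black diamonds give the values of the text, orange squares normexp background correction, blue triangles median scaling, red crosses the 6 arrays left without sictrl A3 and siUCA1 A1, and gray points the other settings; all stay on their side of 0, with LINC00624 moving from 1.35 to 0.59 under normexp correction.

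The other 112 members did not pass the test. Their changes ran from -0.84 (LINC01186) to 0.53 (LINC00632), with 68 above 0 and 44 below. The 95% interval stayed within a log2 change of 1 in either direction for 105 of them, and within 0.5 for 39. A log2 change of 1 was thus outside the interval for most of them. The median interval reached 0.345 to either side over the 122 members. Unadjusted p was below 0.05 in 25 members (20.5%), against 27.5% of all genes. In 8 of the 112 the conditions did not overlap, in addition to the 10 above. LINC01186 was the farthest of these, at 1.13 ± 0.47 with sictrl and 0.29 ± 0.34 with siUCA1 (adjusted p = 0.0661). LINC02987 had 1.14 ± 0.17 and 0.65 ± 0.22 (adjusted p = 0.0562), and LINC01732 had 2.73 ± 0.14 and 2.36 ± 0.15 (adjusted p = 0.0694). A second probe of LINC01732 had a change of 0.23 in the other direction, without passing the test. Of the 3, LINC02987 passed without sictrl A3 and without siUCA1 A1, and LINC01186 without sictrl A1. LINC02987 and LINC01186 also passed with the replicate name in the fit, although the labels give these names no meaning.

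A list of 27 LINC genes known from cancer studies had 26 on the array and 15 detected, all 15 on 8 arrays. LINC00467 and LINC01503 of these changed, both downward, beside the 11.5% of all genes. Among the 13 that did not pass was LINC00665, a lncRNA in breast cancer with a known micropeptide, whose change was -0.50 (95% interval -0.996 to -0.00303). Its sictrl values were 0.37, 0.40, 0.37 and -0.51, so the control A3 lay at the level of the siUCA1 arrays, which read -0.43, -0.50, -0.00276 and -0.44. Without sictrl A3, LINC00665 passed the test with a change of -0.72. It also passed on all arrays when the mean of its kept probes was used. LINC00662 had the same control array apart, at -0.43 against 0.96 to 1.02 on the other sictrl arrays. Its change was -0.11 with all arrays (adjusted p = 0.858) and -0.47 with a pass of the test without sictrl A3 (adjusted p = 0.0350).

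LINC01089, described as a metastasis suppressor in breast cancer, read 0.56, 0.37, 0.35 and 0.56 with sictrl and 0.73, -0.07, -0.27 and -0.13 with siUCA1. Here siUCA1 A1 was the highest of all 8 arrays and the other siUCA1 arrays were below every control. The change was -0.39 (adjusted p = 0.256), and -0.61 without siUCA1 A1 (adjusted p = 0.00927). In LINC00665, LINC00662 and LINC01089 the array left out was the one lying against the change, which strengthens the change by construction. Without siUCA1 A1 14.6% of all genes passed, and without sictrl A3 13.8%. LINC00673, which promotes the degradation of the phosphatase PTPN11 and lies at a pancreatic cancer risk locus, read -0.23, 0.23, -0.27 and 0.62 with sictrl and -0.56, -0.49, -0.40 and 0.53 with siUCA1. A3 was the highest array of both conditions, and the change of -0.32 had an interval from -0.96 to 0.33. LINC01605 had a change of -0.25.

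LINC00472 is described with its probes below, and the remaining members of the list had small changes, several of which turned sign in other settings. The probes of LINC00339, LINC00958 and LINC01116 also differed in sign among themselves. LINC00963, linked to castration resistance in prostate cancer, had a change of 0.19 by its brightest probe and of -0.52 by another, neither past the test, and LINC00857, studied in lung cancer, one of 0.16. LINC00339, next to CDC42, and LINC01234, studied in gastric cancer, both had a change of 0.12. LINC00941 had 0.08, LINC01116 had 0.07 and LINC00958, first studied in bladder cancer, had 0.04. The intervals of LINC00941, LINC01116 and LINC00958 lay within 0.5 to either side, whereas that of LINC01234 reached from -0.51 to 0.75.

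Several members were read by more than 1 probe, which allows a check within the gene. Of the 141, 36 had several kept probes and 35 had at least 2 on all 8 arrays. The probes of a gene differed by a median of 0.234 in log2 change and by 0.753 at most, in LINC00173. Signs were mixed in 11 of the 35, and in none did probes pass the test in opposite directions. LINC00472, a lncRNA with tumor-suppressing activity in breast cancer, had 6 probes, each of them lower with siUCA1, from -0.22 to -0.78. Some of its dimmer probes passed the test over all probes, with changes of -0.60 (adjusted p = 0.00758) and -0.78 (adjusted p = 0.0211). The brightest did not (-0.46, adjusted p = 0.123), so this gene is not among the 10. With the mean of its probes it passed (adjusted p = 0.0190). LINC00173 was a similar case. Its dimmest probe, listed for another RefSeq transcript of the gene than the others, passed with -0.77 (adjusted p = 0.0274), while the others gave -0.29 and -0.02. In LINC00668 the dimmer probe passed with 0.56 (adjusted p = 0.0457) beside 0.11 for the brightest.

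**Figure D4:**
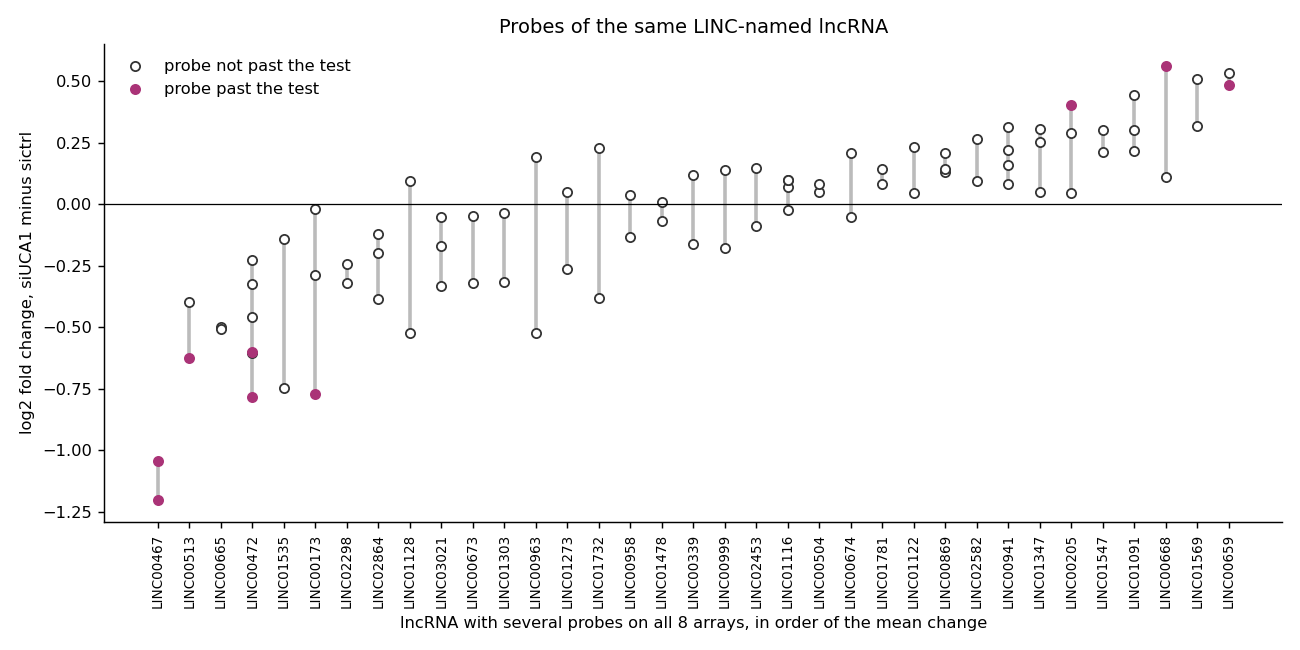
Log2 fold change (siUCA1 minus sictrl) of each probe of the 35 members with at least 2 probes on all 8 arrays; a gray bar joins the probes of a gene, and filled points passed the test over all probes. Both probes of LINC00467 lie below -1, all 6 of LINC00472 lie below 0, and the bars of 11 genes cross 0.

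Some lncRNAs act on, or are transcribed together with, the gene beside them. For 67 members the nearest protein-coding gene in RefSeq was measured on all 8 arrays too. In 37 of the 67 pairs (55.2%) both had the same sign of change. The correlation across pairs was weak (Pearson r = 0.225, Spearman rho = 0.143, across genes on the same arrays, and a gene can be nearest to more than 1 member). The coding neighbor passed the test in 12 pairs (17.9%), beside 11.5% of all genes, a difference that was not tested. These were 11 genes, since SAMD11 is nearest to both LINC00115 and LINC01128. LINC02608 was the one changed lncRNA whose neighbor also changed: PPP2R5A, a regulatory subunit of the phosphatase PP2A, went from 2.45 to 3.13, a rise of 0.68 (SE 0.11, adjusted p = 0.00892). On the other side of LINC02608, DTL, a substrate receptor of a ubiquitin ligase, had a change of 0.12 (adjusted p = 0.430).

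The flanking genes that were measured beside the deepest falls and beside the largest rise did not pass the test. Beside LINC00294, TCP11L1 had a change of 0.03 and CSTF3, a cleavage stimulation factor of mRNA 3′ ends, one of 0.14 (adjusted p = 0.933 and 0.317). Beside LINC00467, TRAF5, an adaptor of TNF receptors, had 0.02 and RD3 had -0.06 (adjusted p = 0.907 and 0.826). Beside LINC01315, TCF20 had -0.01 (adjusted p = 0.959), while NFAM1, which is nearer, was not among the genes tested. Beside LINC00624, BCL9, a coactivator of β-catenin, had 0.35 (adjusted p = 0.242) and the chromatin remodeler CHD1L 0.12 (adjusted p = 0.525). 7 members start within 2 kb of a coding gene that points away from them. Of the partners, 3 were measured on all 8 arrays together with the lncRNA. None of the 3 passed the limma test, and 1 had an unadjusted p below 0.05. POFUT2, the O-fucosyltransferase partner of LINC00205, had a change of -0.49 where the lncRNA rose, but it was kept through 1 condition only and is given with no test. ANXA11, the annexin partner of LINC00857, had 0.34 (adjusted p = 0.0861).

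**Figure D5:**
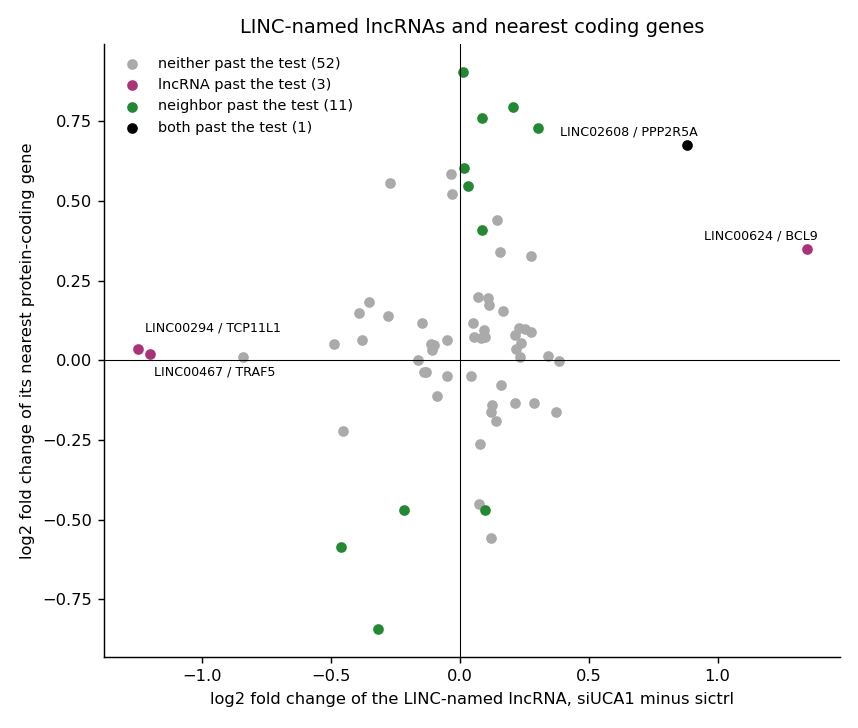
Log2 fold change (siUCA1 minus sictrl) of 67 members (x axis) and of the nearest protein-coding gene (y axis), each point being a pair. Changed lncRNAs are named; LINC02608 and PPP2R5A are the single pair in which both passed the test, and the deepest falls on the left sit at the height of 0.

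The 19 members measured on all arrays of 1 condition only had been chosen through that condition, so they are described with no test. Of these, 14 were kept through sictrl and 5 through siUCA1. None was absent from the other condition: 14 were above background on 3 of its arrays, 4 on 2 and 1 on a single array. Their changes ran from -0.77 (LINC02593) and -0.76 (LINC00310) to 0.62 (LINC01301) and 0.72 (LINC00910). LINC00310 and LINC00092, with a change of 0.40, were the 2 members of the 19 whose conditions did not overlap, beside 21.3% of the genes measured on all 8 arrays, and the rule had used detection on the same arrays.

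Some genes once had a LINC number and now bear another name. Of 203 on the array, 66 were kept and 57 measured on all 8 arrays, of which 12 (21.1%) passed the test, 4 higher and 8 lower, UCA1 included, beside 11.5% of all genes. After UCA1, the 4 with the largest changes were DUBR (-0.79, adjusted p = 0.0285), INAFM2 (-0.77, adjusted p = 0.00843), SPACA6 (-0.70, adjusted p = 0.00568) and TP53TG1 (0.64, adjusted p = 0.0417). The conditions of DUBR overlapped slightly, with sictrl A1 at -0.283 and siUCA1 A3 at -0.278, whereas those of INAFM2, SPACA6 and TP53TG1 did not. DUBR and TP53TG1 are lncRNAs, whereas INAFM2 and SPACA6 are now classed as protein-coding. Of the 12, 4 were protein-coding (of 10 measured) and 8 noncoding (of 47 measured). Under normexp correction neither these 4 nor PPP2R5A passed the test. Of the 20 settings, DUBR and TP53TG1 missed it in 9 each, SPACA6 in 4, PPP2R5A in 3 and INAFM2 in 2. DUBR missed it without sictrl M2, A2 or A3 and without siUCA1 M2 or A2, and TP53TG1 without sictrl A1, M2 or A2 and without siUCA1 M2, A2 or A3.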

How the data were processed

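Total RNA of 8 OAW42-R cultures was hybridized by the authors to one-color arrays, and the deposited files hold each spot's intensity on a linear scale, as Feature Extraction 10.7.3.1 gave it (background subtracted, spatial trend removed, not normalized between arrays). The deposited series table held the same numbers. Log2 of this processed signal was centered on the array's 75th percentile over noncontrol spots. Outlier spots (76 to 132 per array) were left out, spots of a probe averaged, probes kept when well above background on all 4 arrays of a condition, and the brightest kept probe used per gene. Names, neighbors and promoters came from RefSeq tables (GRCh38.p14), whose build differs from that of the arrays, and 11997 of the 15457 genes kept had a RefSeq symbol. Conditions were compared with limma 3.58.1 (R 4.3.3, lmFit and eBayes, no covariate) and Benjamini-Hochberg adjustment over 15457 genes at 0.05. The number of arrays limits the precision. Members and lists were chosen with earlier results of these data known. Named genes were UCA1, each member past the test with all same-name differences in its direction, the detected cancer-list members and the 5 former LINC genes with the largest changes on all arrays. LINC01186, LINC02987, LINC01732, the members described for their probes or as measured in 1 condition, and the neighbors were named after their values were seen. No member lacked signal in a condition, so no bound was needed. 20 other settings were tried. The normexp setting used the median spot signal before removal of the spatial trend, with 50 added.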

Additional observations from a re-analysis of the deposited data

Results flagged for a closer look

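In 58 sets of 4 arrays (the named genes and the median level of the members, in each condition), Dixon's test at the 95% level set 1 array apart in 5. About 5% of sets pass it by chance. On sictrl A3, LINC00339 was at 1.31 against 2.03 to 2.12 on the other controls, LINC00662 at -0.433 against 0.956 to 1.02, and LINC00665 at -0.506 against 0.366 to 0.397. On siUCA1 A2, LINC00665 was at -0.00276 against -0.505 to -0.429. On siUCA1 A3, LINC00673 was at 0.533 against -0.556 to -0.405.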

How the results depend on the processing

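Of the 122 members on all 8 arrays, 10 passed the test as reported. The count was 4 with median scaling (LINC00294, LINC00467, LINC01315 and LINC00624), 4 with normexp background correction and 15 without both sictrl A3 and siUCA1 A1, where 3.46%, 2.46% and 24.3% of all genes passed. With no detection filter, limma over 47753 genes called 0 of them and 0.159% of all genes, with 14 of the members at an unadjusted p below 0.05. Leaving out 1 array at a time gave 4 to 13. The other settings gave 9 to 11. The replicate names were not taken to pair the arrays, since the labels give them no meaning and not every same-name correlation was above 0.1. Same-name correlations of deviations from the group means were 0.039 (A1), 0.278 (M2), 0.216 (A2) and 0.127 (A3), and A1 and A3 correlated best with another name. With the replicate block 11 members passed, 9 of them among the 10, with LINC01123 lost and LINC01186 and LINC02987 added, and the UCA1 change was -5.04. UCA1 passed in all settings, from -5.46 to -4.85.

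Among the named genes, signs turned in 7 cancer-list members that did not pass the test. With median scaling LINC00941 was at -0.0108, LINC00958 at -0.0578 and LINC01116 at -0.0254. With the mean of kept probes LINC00339 was at -0.0204, LINC00958 at -0.0469 and LINC00963 at -0.13. Without both sictrl A3 and siUCA1 A1, LINC00339 was at -0.11. With 1 array left out, LINC00339 ranged from -0.0678 to 0.203, LINC00662 from -0.466 to 0.0195, LINC00941 from -0.0508 to 0.177, LINC00958 from -0.0356 to 0.131, LINC01116 from -0.0140 to 0.155 and LINC01234 from -0.0972 to 0.279. The cause was not tested. Median scaling moved the median change of all genes from 0.03 to -0.07. These are array signals, and how far signal over background limits them was not tested.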
